A study of Bos taurus with 6 samples.

Results

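The genes described here copy the chromosomes once per cell cycle, in S phase. They comprise 49 members, taken by gene symbol or unambiguous synonym from the annotation of a bovine oligonucleotide array, and fall into 8 roles from origin licensing to entry into S phase. Of these members, 47 had at least 1 probe, 85 probes in all, among 15216 genes with a probe on the array; RFC1 and GINS2 had none named here. They were measured in granulosa cells of the dominant preovulatory follicle of Hereford cows, in 3 aged (multiparous) cows numbered 13, 110 and 126 and in 3 young (nulliparous heifer) cows numbered 11, 7 and 184. All 6 cows received prostaglandin F2 alpha and, on day 6 after ovulation, 25 mg of luteinizing hormone (LH), with collection of the follicle on day 7, or 24 h after LH. The labels give no ages in years. They state that the cows formed mother and daughter pairs, without saying which animals these were, and that the cells were spun out of follicular fluid, so that other cells of the fluid may be included. RNA was amplified over 2 rounds and hybridised to 6 two-colour arrays, an aged and a young cow together on each. The pairs were aged cow 13 with young cow 11, aged cow 110 with young cow 7 and aged cow 126 with young cow 184, each on 2 arrays with the dyes exchanged. Ratios are log2 of aged over young, so a positive value means a higher signal in the aged cow, and n = 3 pairs throughout. Levels are log2 normalised channel signals, which compare cows for a given probe and not genes with each other.

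Replication starts when the origin recognition complex (ORC) marks sites where CDC6 and CDT1 load the MCM helicase. In S phase CDC45 and the GINS complex activate that helicase, polymerases alpha, delta and epsilon copy the strands, and the PCNA clamp, set on DNA by replication factor C, holds the polymerases in place. Granulosa cells multiply while the follicle grows under follicle-stimulating hormone and oestradiol, and the LH surge makes them leave the cell cycle and differentiate into luteal cells.

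The samples differed in more than age. Negative controls averaged 200.0 to 401 units per channel and the median probe 233 to 452 units, so many probes lay close to non-specific signal, and 49.4% to 71.9% of probes per channel exceeded the mean + 2 SD of these controls. Probes above that limit in no channel had a median level of 8.21. Young cow 11 stood apart in some granulosa genes. INHA, the inhibin alpha subunit, was at 15.06, 15.11 and 14.87 in aged cows 13, 110 and 126 and at 10.44, 15.06 and 15.16 in young cows 11, 7 and 184. NR5A2, another granulosa marker, was at 12.78, 12.30 and 11.62 in these aged cows and at 13.32, 13.63 and 13.48 in these young cows. It was the 1 of 11 kept granulosa markers lower in all pairs, while 4 were higher in all pairs. The epithelial adhesion gene EPCAM was at 8.23, 8.81 and 9.25 in the same aged cows and at 15.00, 12.98 and 9.78 in the young cows. EPCAM was the 1 of 8 kept epithelial markers that was lower in all pairs, and 0 were higher in all pairs. Their median ratio was -3.47 in the pair of aged cow 13, -3.52 in that of aged cow 110 and 0.12 in that of aged cow 126. Over all 11 epithelial markers with a probe the summed signal was 12.3 to 14 (log2) in aged cows and 13.7 to 17 in young cows. Over 16 granulosa markers it was 17 to 17.5 in aged cows and 14.2 to 17.2 in young cows, with FOXL2 above background on no more than 1 channel. The brightest genes dominate such sums. The summed signal of the 14 leukocyte markers with a probe was highest in aged cow 126, at 15.6. It was 12.3 and 12.9 in the other aged cows and 12.9 to 14.5 in young cows. Of 10 kept leukocyte markers 2 were higher and 1, PTPRC, was lower in all pairs. The markers did not all share 1 order: TYROBP was at 13.87 in aged cow 126 and 9.37 in young cow 7, but PTPRC was at 12.03 and 12.55. The part of these cell markers in the results was not tested. In bulk RNA, fewer cells of a type and less RNA per cell cannot be told apart.

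Replication transcripts were most often highest in aged cow 13, and the difference between the ages was uneven across the 3 pairs. A probe was kept where it exceeded the mean + 2 SD of the negative controls in the channels of all aged cows or of all young cows, and 34 members had a kept representative probe, the brightest of the gene. Their median ratio was 0.47 in the pair of aged cow 13, 0.01 in that of aged cow 110 and 0.22 in that of aged cow 126. The median of the members' mean ratios was 0.24, against 0.06 over the 8999 genes tested. Without the pair of aged cow 13 it was 0.09, against 0.07 over all tested genes. The SD between the 3 pair medians was 0.23, about as large as the median itself.

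No member passed the test. With p-values from limma, adjusted by Benjamini-Hochberg over the 20786 kept probes, 0 of 34 members had an adjusted p under 0.05, as had 0% of those probes (smallest adjusted p = 0.463). At an unadjusted limma p under 0.05, 5 members were higher in aged cows (ORC2, POLE2, MCM6, MCM2 and RPA1), where 7.56% of all tested genes were, and 0 members were lower, where 3.99% were. In all 3 pairs 11 members, or 32.4%, were higher in the aged cow, against 22.6% of all tested genes, and 2 members, or 5.88%, were lower, against 16.2% of all tested genes. The filter bears on both counts of higher members. Of the 34, 12 were kept only because all aged channels exceeded background, and 7 of those 12 were among the 11. ORC2, MCM2 and RPA1, among the 5 at an unadjusted p under 0.05, were also kept only that way. With every channel of both ages above background, 2 of 21 members (POLE2 and MCM6) were higher at such a p, as were 473 of 6997 genes. Of the 21 members above background in every aged and every young channel, 4 (19%) were higher in all pairs, against 19.3% of all genes kept that way. With no filter it was 11 of 47 members (23.4%), against 17.7% of all genes. The count of 5 at an unadjusted p under 0.05 became 2 without aged cow 13 and its partner, 2 without aged cow 110 and 3 without aged cow 126.

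**Figure D1:**
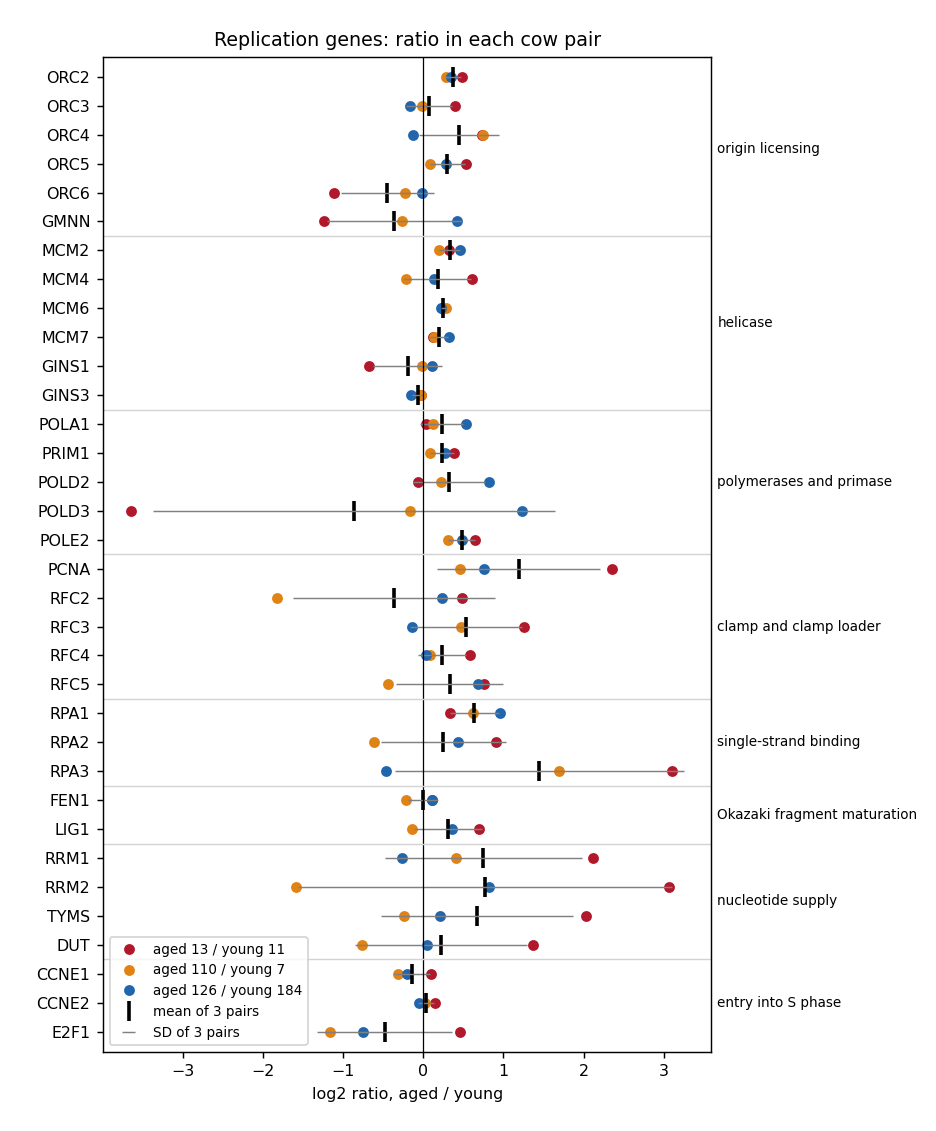
Log2 ratio (aged / young, horizontal axis) of the 34 tested replication genes, grouped by role. Each dot is 1 cow pair (mean of 2 dye-swapped arrays), the black tick is the mean and the grey line the SD of 3 pairs. The pair of aged cow 13 (red) reaches 3.10 for RPA3 and -3.65 for POLD3, while MCM6 lies between 0.22 and 0.28 in all pairs.

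Of the 9 members that license origins, 6 were tested, and 1 of them had an unadjusted p under 0.05. ORC2, a subunit of the origin recognition complex, was at 8.78, 8.63 and 8.83 in aged cows 13, 110 and 126 and at 8.30, 8.34 and 8.48 in young cows 11, 7 and 184. The levels of the 2 ages did not overlap, but all lay near background, and only 4 of 6 young channels exceeded it. The mean log2 ratio was 0.37 ± 0.10 (SD, n = 3), or 1.29-fold, with an unadjusted limma p of 0.0121 and an adjusted p of 0.463, and a second kept ORC2 probe gave 0.03 ± 0.07. ORC5, another subunit, was higher in the aged cow on all 6 arrays, at 8.94, 8.47 and 8.77 in aged cows and 8.41, 8.39 and 8.48 in young cows (0.30 ± 0.22). ORC3 and ORC4 had mean ratios of 0.07 ± 0.29 and 0.45 ± 0.50 with both signs among the pairs.

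ORC6, the smallest subunit of the complex, had a mean ratio below 0 in each pair, but not on each array. It was at 9.70, 8.83 and 8.95 in aged cows and at 10.81, 9.06 and 8.97 in young cows, a mean ratio of -0.45 ± 0.58 measured on 5 arrays. The dye-swapped arrays disagreed in sign: the pair of aged cow 13 read 0.53 with the aged cow in Cy3 and -2.74 with it in Cy5, and the pair of aged cow 126 read 0.79 and -0.83 in the same order. The pair of aged cow 110 rested on 1 array, at -0.23. The other kept ORC6 probe gave 0.08 ± 0.15, and a probe not kept gave -0.27 ± 0.36, so no direction is given for this gene. GMNN (geminin), which blocks a new round of licensing, was at 10.59, 9.04 and 9.42 in aged cows and at 11.84, 9.30 and 9.0 in young cows. Its 2 highest levels thus belonged to the pair of aged cow 13 and young cow 11, with the young cow above the aged one. The mean ratio was -0.36 ± 0.84 (adjusted p = 0.737). ORC1, CDC6 and CDT1 did not pass the filter in either age, with levels of 8.06 to 8.42 in aged cows and 8.10 to 8.42 in young cows.

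Of the 12 helicase members 6 were tested, and all of these except GINS1 lay near background. MCM6 had 8.77, 8.77 and 8.79 in aged cows and 8.53, 8.50 and 8.57 in young cows, the tightest agreement between pairs among the members that were higher in all pairs. The groups did not overlap, the mean ratio was 0.25 ± 0.03 (1.19-fold), and the adjusted limma p was 0.463. MCM2 was at 9.35, 8.91 and 9.03 in aged cows and at 9.03, 8.71 and 8.57 in young cows (0.33 ± 0.13, unadjusted p = 0.0255). Here the highest young cow equalled the level of aged cow 126, and 5 of 6 young channels exceeded background. MCM2 probes not kept gave 0.26 ± 0.37 and -0.01 ± 0.01. MCM7 was at 8.57, 8.54 and 8.64 in aged cows and at 8.44, 8.40 and 8.32 in young cows, but exceeded background on only 2 of 6 young channels. All 3 of these ring subunits were higher in the aged cow on 6 of 6 arrays, and MCM4, another subunit of the ring, had ratios of 0.61 for aged cow 13, -0.22 for aged cow 110 and 0.14 for aged cow 126.

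GINS1, a subunit of the helicase activator, was at 11.24, 10.52 and 10.42 in aged cows and at 11.93, 10.52 and 10.30 in young cows, so the pair of aged cow 13 differed by -0.68 and the others by -0.01 and 0.11. A second kept GINS1 probe ran the other way, at 0.25 ± 0.12, and a probe not kept gave 0.04 ± 0.02. GINS3 was lower in all pairs by small amounts, with a mean ratio of -0.07 ± 0.07. Its other kept probe gave 0.04 ± 0.07 and a probe not kept gave -0.05 ± 0.03. MCM3, MCM5, MCM10, CDC45 and GINS4 did not pass the filter, with levels between 8.21 and 8.79 in aged cows and between 8.09 and 8.46 in young cows.

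Among the polymerases and primase 5 of 8 members were tested. POLE2, the second subunit of polymerase epsilon, which copies the leading strand, was at 9.70, 9.30 and 9.57 in aged cows and at 9.05, 9.0 and 9.09 in young cows. Every aged cow was above every young cow, and all channels exceeded background. Its mean ratio was 0.48 ± 0.17 (1.39-fold, higher on 6 of 6 arrays), with an unadjusted limma p of 0.0149 and an adjusted p of 0.463. With 3 pairs the exact sign-flip test, two-sided, cannot go below p = 0.25, which is what it gave. PRIM1, the catalytic primase subunit, was at 9.26, 8.58 and 9.0 in aged cows and at 8.88, 8.51 and 8.74 in young cows (0.24 ± 0.15, 6 of 6 arrays). POLA1, the catalytic subunit of polymerase alpha, was also higher in all pairs, with a mean ratio of 0.23 ± 0.27, but on only 4 of 6 arrays. POLD2, a subunit of polymerase delta, had 0.32 ± 0.45.

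POLD3, an accessory subunit of polymerase delta, had the widest range over cows of all members, 4.03 log2 units. It was at 9.28, 8.89 and 10.26 in aged cows and at 12.93, 9.06 and 9.03 in young cows. Young cow 11, the sample low in INHA, carried the high value alone. The 2 arrays of that pair gave -1.80 and -5.51, a spread that leaves its size uncertain, and the mean over pairs was -0.86 ± 2.51. A second kept POLD3 probe did not repeat it: this probe read 8.73 in young cow 11 and had a mean ratio of 0.34 ± 0.42. A probe not kept gave 0.00 ± 0.04. POLA2, POLD1 and POLE did not pass the filter, at 8.22 to 8.45 in aged cows and 8.25 to 8.45 in young cows.

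PCNA, the sliding clamp, was higher in every aged cow than in any young cow. Its level was 14.34, 12.74 and 13.32 in aged cows 13, 110 and 126 and 12.00, 12.28 and 12.56 in young cows 11, 7 and 184. The ratios of 2.35, 0.46 and 0.76 gave a mean of 1.19 ± 1.02, or 2.28-fold, on 6 of 6 arrays. The unadjusted limma p was 0.0904, the adjusted p 0.525 and the exact sign-flip p 0.25. Without the pair of aged cow 13 the mean ratio was 0.61. Its 3 other kept probes had mean ratios of 1.03 ± 0.52 (unadjusted p = 0.0262), 0.79 ± 0.53 and 0.42 ± 0.82, and all 4 were highest in aged cow 13. With the last of them the pair of aged cow 110 ran the other way, at -0.30.

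Replication factor C, the loader that opens the clamp, did not share one pattern over its 4 tested subunits. RFC3 was at 11.98, 10.71 and 10.75 in aged cows and at 10.72, 10.24 and 10.90 in young cows (0.53 ± 0.70). RFC5 was at 12.56, 11.11 and 11.74 in aged cows and at 11.81, 11.55 and 11.06 in young cows (0.33 ± 0.67). Both were highest in aged cow 13 and overlapped between the ages. RFC2 was at 12.63, 10.78 and 11.46 in aged cows and at 12.15, 12.61 and 11.23 in young cows, so that aged cow 13 and young cow 7 were nearly equal at the top and the pair of aged cow 110 had a ratio of -1.83. RFC4 was higher in all pairs at 0.58, 0.08 and 0.04, the last 2 close to 0, but on only 4 of 6 arrays.

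Replication protein A coats single-stranded DNA as a trimer of RPA1, RPA2 and RPA3. RPA1, the large subunit, was at 8.77, 8.90 and 9.22 in aged cows and at 8.43, 8.28 and 8.26 in young cows, without overlap. Only 2 of 6 young channels were above background, against 6 of 6 aged channels, and the mean ratio was 0.64 ± 0.31 (1.56-fold, unadjusted p = 0.0255, adjusted p = 0.463). RPA3, the small subunit, was at 14.42, 12.28 and 11.45 in aged cows and at 11.31, 10.58 and 11.92 in young cows. Its mean ratio of 1.45 ± 1.80 was the highest of the members, but the pair of aged cow 126 ran the other way, at -0.47, and the adjusted limma p was 0.61. RPA2 was at 12.45, 10.66 and 10.99 in aged cows and at 11.54, 11.27 and 10.55 in young cows, with a mean ratio of 0.25 ± 0.78. FEN1 and LIG1, which trim and join Okazaki fragments, had mean ratios of 0.00 ± 0.19 and 0.31 ± 0.42.

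**Figure D2:**
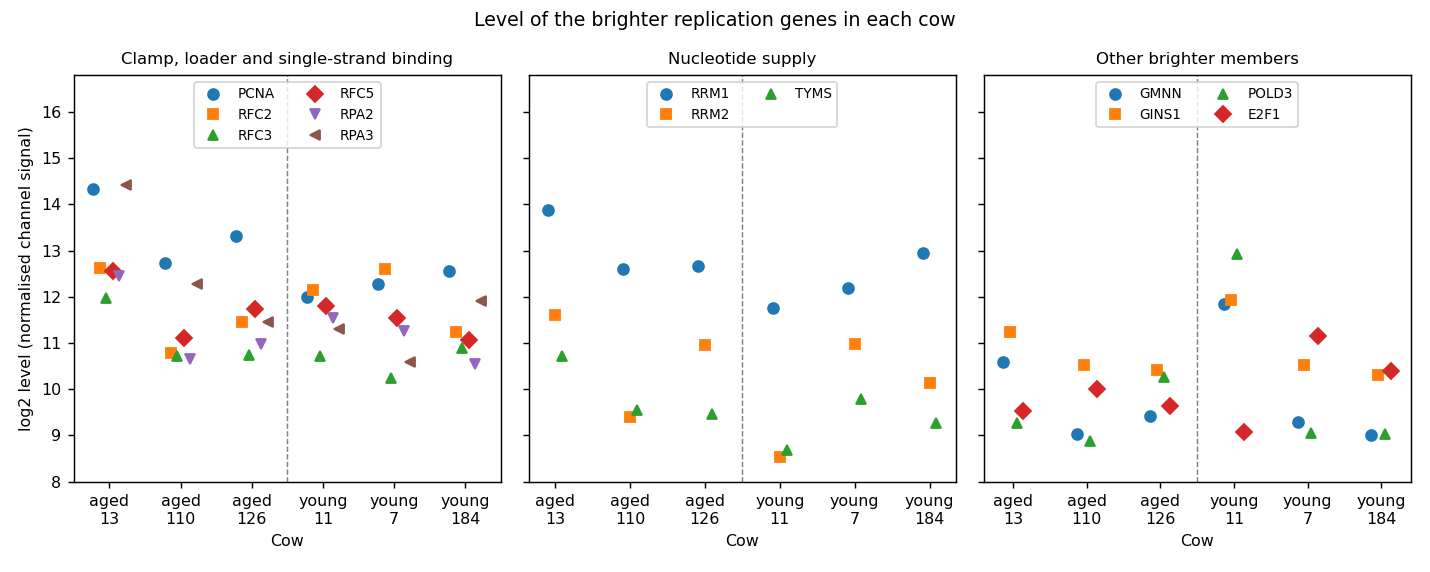
Log2 level (vertical axis, normalised channel signal) in each cow of the 13 replication genes with a mean level of at least 9.5, aged cows left of the dashed line and young cows right of it. Each point is the mean of 2 dye orientations. PCNA, RPA3 and RRM1 stand at 14.34, 14.42 and 13.87 in aged cow 13, and POLD3 stands at 12.93 in young cow 11.

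All 4 tested nucleotide supply genes had their highest level in aged cow 13. RRM1, the large subunit of ribonucleotide reductase, which makes deoxynucleotides, was at 13.87, 12.60 and 12.67 in aged cows and at 11.75, 12.20 and 12.94 in young cows (0.75 ± 1.23). RRM2, the small subunit that is normally made in S phase, was at 11.60, 9.39 and 10.95 in aged cows and at 8.53, 10.98 and 10.13 in young cows. The order over cows therefore crossed the ages: aged cow 13 was highest, young cow 7 and aged cow 126 came next, and young cow 11 was lowest. The RRM2 ratios were 3.07, -1.59 and 0.82, with a mean of 0.77 ± 2.33 (adjusted p = 0.782), and its second-brightest probe had 2.04, -0.85 and 0.68. The remaining kept RRM2 probe, near background, had 0.41, -0.39 and -0.19 (-0.06 ± 0.42).

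TYMS, thymidylate synthase, was at 10.71, 9.55 and 9.47 in aged cows and at 8.68, 9.79 and 9.27 in young cows (0.67 ± 1.20), while a dimmer kept TYMS probe had -0.04 ± 0.03 and a probe not kept 0.02 ± 0.05. DUT, which removes dUTP, was at 10.55, 8.87 and 8.67 in aged cows and at 9.18, 9.63 and 8.62 in young cows (0.22 ± 1.07), and its other kept probe gave 0.28 ± 0.82, with -0.01 ± 0.06 from a probe not kept. Like RRM2, both were higher in young cow 7 than in aged cow 110. TK1, thymidine kinase, did not pass the filter. It was at 9.30 in aged cow 13, 8.45 and 8.39 in the other aged cows and 8.34, 8.60 and 8.21 in young cows 11, 7 and 184.

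The 3 tested genes of entry into S phase had mean ratios between -0.48 and 0.04. E2F1, the transcription factor that turns on many replication genes, was at 9.53, 10.00 and 9.64 in aged cows and at 9.07, 11.16 and 10.39 in young cows. Young cows held both its highest and its lowest level, and the mean ratio was -0.48 ± 0.84 (adjusted p = 0.687). The cyclins E, which activate CDK2 at the start of S phase, were dim, with mean ratios of -0.14 ± 0.22 for CCNE1 and 0.04 ± 0.10 for CCNE2. CCND1, cyclin D1, was above background on no channel. E2F1 did not share its order over cows with RRM2, TYMS or DUT, since aged cow 13 had the second-lowest E2F1 level.

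**Figure D3:**
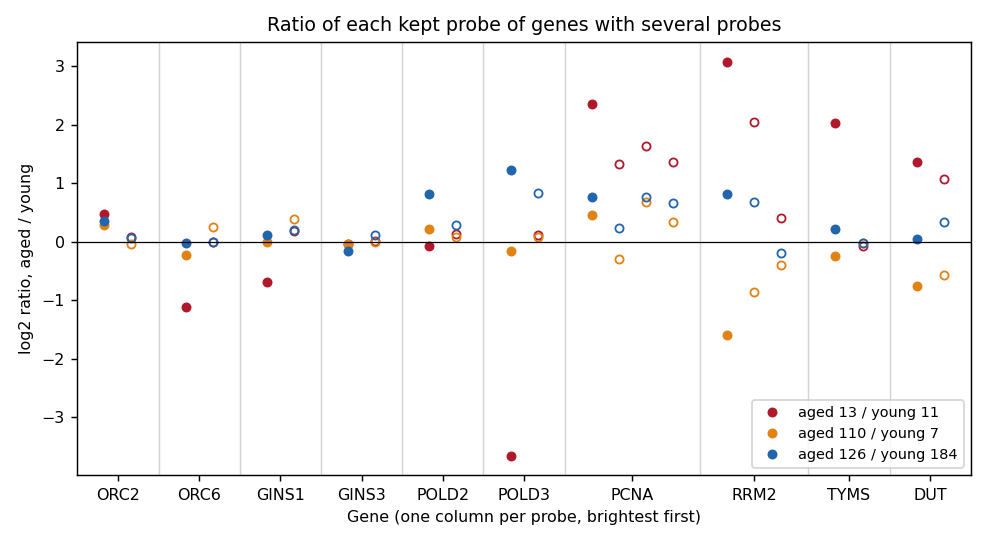
Log2 ratio (aged / young, vertical axis) of every kept probe of the 10 replication genes with more than 1 kept probe, 1 column per probe. Dots are the 3 cow pairs, filled for the brightest probe. All 4 PCNA probes are positive in the pair of aged cow 13 and in that of aged cow 126, and 3 of 4 in that of aged cow 110, while the -3.65 of POLD3 and the 2.03 of TYMS are not seen with their other kept probes.

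Across the tested members, the cow with the highest level was aged cow 13 for 20 of 34, or 58.8%. That cow was highest for 17.9% of all tested genes. Aged cow 126 was highest for 6 members, young cows 11 and 7 for 4 each, and aged cow 110 and young cow 184 for 0. Among the 13 members with a mean level of at least 9.5, aged cow 13 was highest for 9 (69.2%), against 22.6% of all tested genes at that level, a limit chosen after the data were seen. Only PCNA of these 13 was higher in the aged cow in all pairs. The 5 members with an unadjusted p under 0.05 all had mean levels below that limit. These shares describe single cows and were not tested.

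Other genes of replication and S phase likewise gave no call. Of 54 such genes 39 were tested, 0 passed the adjusted threshold, and 3 were higher and 1 lower at an unadjusted p under 0.05, where 7.56% and 3.99% of all tested genes were. In all pairs 10 were higher and 3 lower (25.6% and 7.69%), against 22.6% and 16.2% of all tested genes. Their median ratio was 0.27 in the pair of aged cow 13, 0.03 in that of aged cow 110 and 0.04 in that of aged cow 126. CDK4, the cyclin D kinase, was at 10.73, 9.84 and 10.17 in aged cows and 9.92, 9.18 and 9.89 in young cows (0.58 ± 0.28, unadjusted p = 0.025). PARP1, which senses DNA breaks, was at 14.01, 14.15 and 13.85 in aged cows and 13.65, 13.13 and 13.43 in young cows, without overlap (0.60 ± 0.36, adjusted p = 0.467). POLE3, a histone-fold subunit of polymerase epsilon, had a mean ratio of 0.21 ± 0.01 over the pair means. Its single arrays were less uniform, with 4 higher in the aged cow and 2 lower. TOP1, which relaxes supercoils ahead of the fork, was the one lower: it was at 12.24, 12.43 and 12.18 in aged cows and 12.61, 13.63 and 13.92 in young cows (-1.10 ± 0.69, unadjusted p = 0.0434).

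Genes of mitosis, which follows S phase and G2, were concentrated in aged cow 13 too. Of 47 listed genes 36 were tested, and their median ratio was 2.21 in the pair of aged cow 13, -0.11 in that of aged cow 110 and 0.33 in that of aged cow 126. Aged cow 13 had the highest level for 31 of them (86.1%), against 17.9% of all tested genes. Young cow 11 had the lowest level for 28 of them (77.8%), against 22.5% of all tested genes. CCNB1, cyclin B1, was at 12.00, 9.55 and 9.64 in aged cows and between 9.18 and 9.74 in young cows. In all pairs 11 mitosis genes were higher (30.6%) and 0 lower, against 22.6% and 16.2% of all tested genes. Of those above background in every channel of both ages it was 1 of 20 (5%), against 19.3% of all genes kept that way. None passed the adjusted threshold. At an unadjusted limma p under 0.05, 1 was higher and 0 lower, where 7.56% and 3.99% of all tested genes were. The 1 higher was SMC2, a condensin subunit, with 0.40 ± 0.21. CKS1B, a CDK-binding protein, had 0.37 ± 0.23, and CENPE, a kinetochore motor, and BUB3, a spindle checkpoint protein, had 0.90 ± 0.96 and 1.16 ± 1.25.

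**Figure D4:**
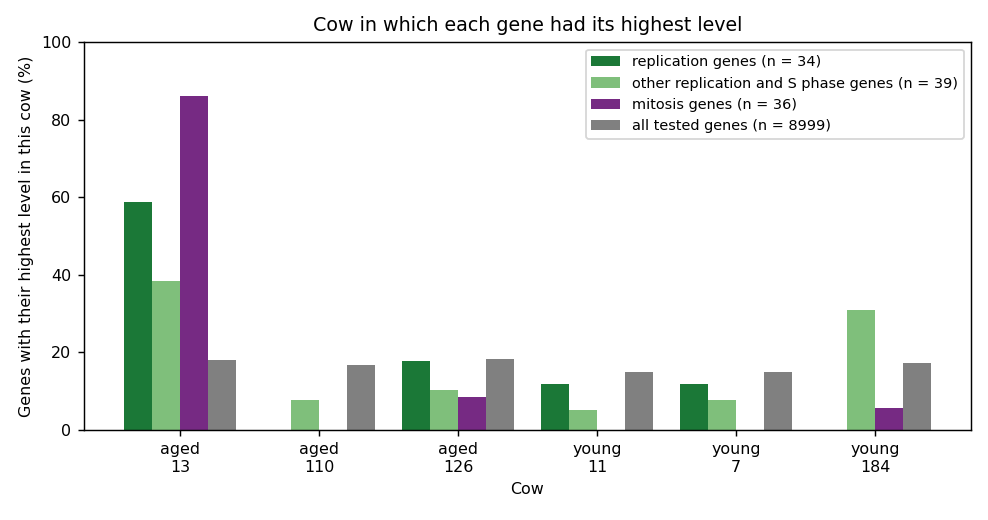
Share of genes (%, vertical axis) that had their highest level in each cow (horizontal axis), aged cows left, for the 34 replication genes, 39 other replication and S phase genes, 36 mitosis genes and all 8999 tested genes. Bars of the 3 cell cycle lists are tallest at aged cow 13, at 58.8%, 38.5% and 86.1%, where the bar of all tested genes is 17.9%.

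Some granulosa genes, chosen after their values were seen, had their 2 highest levels in aged cow 13 and young cow 7. This held for 5 of the 16 granulosa markers with a probe, whether above background or not (INHBA, INHBB, CYP19A1, AMH and HSD17B1), and for 3.54% of all tested genes. HSD17B1 differed little, at 8.44, 8.37 and 8.32 in aged cows and 8.33, 8.40 and 8.37 in young cows, and the other 11 markers, INHA among them, had other orders. CYP19A1, aromatase, which makes oestradiol and is normally shut down after the LH surge, was at 13.01 in aged cow 13, 8.48 and 8.43 in aged cows 110 and 126, and 8.44, 9.68 and 8.36 in young cows 11, 7 and 184. INHBB, the inhibin beta B subunit, was at 13.17, 8.15 and 8.15 in aged cows and at 8.41, 10.75 and 8.14 in young cows. INHBA, the inhibin beta A subunit, was at 15.06, 11.46 and 11.96 in aged cows and at 10.45, 15.40 and 11.61 in young cows. CCND2, cyclin D2, through which follicle-stimulating hormone drives granulosa proliferation in mice, was at 13.04, 8.67 and 9.41 in aged cows and at 8.94, 12.72 and 9.08 in young cows. Of the 34 tested replication members 5 had these 2 highest cows (14.7%): RRM2, TYMS, DUT, RFC2 and FEN1. The margin was narrow for RRM2 (10.98 in young cow 7 and 10.95 in aged cow 126). FEN1, near background, also had a narrow margin (8.58 in aged cow 13 and 8.52 in aged cow 110). The other 29 members did not have these 2 highest cows, and RPA3, at 10.58, was lowest in young cow 7. Of the 36 mitosis genes 12 did (33.3%), CCNB1 among them. These shares were not tested. CYP19A1 and INHBB did not pass the filter, since no age had all channels above background. PTX3, which the ovulatory signal induces in mouse cumulus cells, was at 10.34, 15.02 and 13.80 in aged cows and at 8.66, 9.04 and 13.39 in young cows. TNFAIP6, induced alongside it in mice, was at 14.99, 15.09 and 15.03 in aged cows and at 8.90, 9.19 and 15.09 in young cows.

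**Figure D5:**
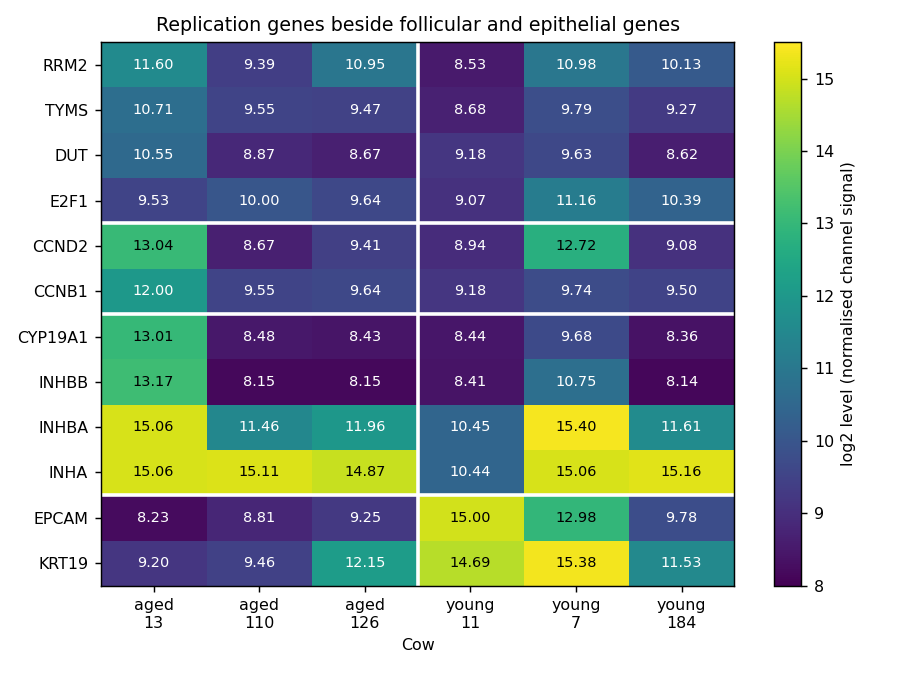
Log2 level (colour and printed value, normalised channel signal) of 4 replication genes, CCND2 and CCNB1, 4 follicular genes and 2 epithelial genes in each cow, chosen after their values were seen, aged cows left of the white line. RRM2, CCND2, CYP19A1, INHBB and INHBA share their 2 highest cows, aged cow 13 and young cow 7, while INHA is low only in young cow 11.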

How the data were processed

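RNA of 3 aged and 3 young cows was measured on 6 arrays. Per the file headers, the deposited scanner files hold mean and median spot intensity and local background in each channel, not normalised, and another column that counts ignored cells, used to leave out 42 to 113 spots per array. The authors also deposited a table of log2 ratios, which ran as aged over young on all arrays (r between 0.819 and 0.939 with the ratios computed here, across probes). The submitters' processing notes name limma; its settings are not given in the sources used here. One file lists 85 spots out of order, so spots were aligned by index.

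Spot means were background-corrected by normexp (offset 50) and loess-normalised within arrays in limma 3.58.1 (R 4.3.3), with control and ignored spots at weight 0. The 2 dye-swapped arrays of a pair were averaged after turning each to aged over young, and the 3 pair values were fitted with lmFit and eBayes, two-sided, with Benjamini-Hochberg adjustment over 20786 kept of 43794 probes. A probe was kept above the mean + 2 SD of 153 negative controls in all channels of 1 age. Of the 43794 probes, 1 lacked a value in a pair and was left out. Levels per cow were taken after loess and Aquantile. The pairing comes from the arrays, which both cows of a pair shared (consensus correlation of their arrays 0.80). Dye-swapped ratios of the tested members correlated across genes with r = 0.85 for aged cow 13, 0.92 for aged cow 110 and 0.59 for aged cow 126. By the array names, the 2 arrays of aged cow 126 lay on different slides. The number of cows, 3 of each age, limits the precision.

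Probes were named from the platform annotation, with older symbols updated through the RefSeq gene table. Every member is accounted for, with values in full for an unadjusted p under 0.05, the same sign on all 6 arrays or a range over cows of at least 2 log2 units. Other lists name up to 4 genes with the smallest p, and CCND2, CDKN1A and CDKN1B always; further genes were chosen after their values were seen. The members and lists were chosen with earlier results of these data known. The fit was tested on simulated data. Motifs and sequences were not analysed here.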

Additional observations from a re-analysis of the deposited data

How the results depend on the processing

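Under the 16 alternatives to the processing with a fit of their own, 0 probes and 0 members passed the adjusted threshold, including the fit with no replicate block, in which the pairing of cows is ignored (0 members; median ratio 0.24). The members' median ratio lay between 0.09 and 0.36 over 17 alternatives; the extremes were 0.09 without aged cow 13 and its partner, and 0.36 without aged cow 110 and with spot medians. The count of members higher in all pairs was 11 of 34 in the values reported, against 22.6% of all tested genes. It was 16 with median centring, against 29.8% of all tested genes there. With both channels above background it was 4 of 21, against 19.3% there. At a level of at least 9.5 (added after seeing the data) it was 1 of 13, against 21.7% there. With 1 pair left out, where only 2 pairs need agree, it was 12 to 20. Without aged cow 13 and its partner it was 12 (35.3%), against 33.8% of all tested genes. The count lower in all pairs was 2 of 34 in the values reported, against 16.2% of all tested genes. It was 0 with both channels above background, with the authors' values and at a level of at least 9.5. Of all genes, 18%, 14.8% and 13.1% were lower in these 3 settings. The count lower was 1 with spot medians, median centring, aged cows in Cy3 only and the mean of all probes, and 2 to 5 with 1 pair left out. Without aged cow 13 and its partner it was 5 (14.7%), against 25.1% of all tested genes. Members higher at an unadjusted limma p under 0.05 numbered 5, where 7.56% of all tested genes were. They numbered 2 with spot medians, the authors' values or both channels above background (there 473 of 6997 genes), and 7 with no background correction. The share of all tested genes at that p was not taken for spot medians, the authors' values or no background correction. Without aged cow 13 and its partner 11 of 34 members changed sign, RRM2, TYMS, DUT, RPA2 and POLD3 among them; the cause was not tested. By the array names, aged cows 13 and 110 shared slide 098 on both of their arrays. The 2 arrays of aged cow 126 lay on slides 063 and 099, so its dye exchange coincided with a change of slide. With slide as a random block over 6 arrays the median was 0.25 (the slide correlation could not be estimated over 3 pair values). Signal over background limits the 21 tested members with a mean level under 9.5.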

Other observations

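Brakes on the cell cycle were examined as a further list. Of 20 inhibitors, 18 were tested and 0 passed the adjusted limma threshold. At an unadjusted limma p under 0.05, 2 were higher in aged cows and 0 lower, where 7.56% and 3.99% of all tested genes were. In all pairs 8 were higher (44.4%) and 0 lower, against 22.6% and 16.2% of all tested genes. BTG2, an antiproliferative early response gene, was at 11.65, 12.06 and 11.02 in aged cows 13, 110 and 126 and at 11.33, 10.68 and 10.25 in young cows 11, 7 and 184 (0.82 ± 0.53, SD, n = 3). BTG3, of the same family, was at 10.07, 10.32 and 9.67 in aged cows and at 8.71, 9.64 and 9.27 in young cows, so each aged cow was above each young cow (0.81 ± 0.50, adjusted p = 0.467). Both were highest in aged cow 110. TOB1, a relative of BTG2, had 0.55 ± 0.40. GADD45B, a stress-induced gene of growth arrest, was at 14.96, 14.47 and 13.42 in aged cows and at 10.80, 11.76 and 13.00 in young cows (2.43 ± 1.88, adjusted p = 0.505).

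The CDK inhibitors CDKN1A (p21) and CDKN1B (p27) were dim in every cow, with mean ratios of -0.01 ± 0.03 and -0.01 ± 0.14. CDKN2B (p15) was at 8.31, 10.22 and 11.24 in aged cows and at 10.71, 13.07 and 9.59 in young cows, lowest in aged cow 13. Of the 18 tested inhibitors, 3 (16.7%) were lowest and 5 (27.8%) highest in that cow, against 15.9% and 17.9% of all tested genes. GADD45G was high where CCND2 was, at 11.74 in aged cow 13 and 12.18 in young cow 7, against 9.94 and 10.64 in aged cows 110 and 126 and 8.60 and 9.78 in young cows 11 and 184. Of 18 tested inhibitors, 2 (BTG1 and GADD45G) had aged cow 13 and young cow 7 as their 2 highest cows. So had 12 of 36 mitosis genes and 3.54% of all tested genes. AURKB, a mitotic kinase picked from these 12 with its values known, was at 12.87, 10.73 and 11.09 in aged cows and at 8.59, 12.46 and 11.03 in young cows.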
